A study of Homo sapiens with 6 samples.

Results

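Androgens act on prostate cells as testosterone and, more strongly, as dihydrotestosterone, and their level inside a cell is set by enzymes that make them and by enzymes that remove them. STS, HSD3B1, AKR1C3, SRD5A1, SRD5A3 and HSD17B6 lie on the side of synthesis, from circulating sulfated precursors to dihydrotestosterone. UGT2B17, UGT2B15, UGT2B28 and UGT2B11 are UDP-glucuronosyltransferases, which attach glucuronic acid to steroids and so make them inactive and easy to excrete, and UGT2B15 and UGT2B17 are known as genes that androgens repress in LNCaP cells.

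These 10 enzymes were examined on 6 Affymetrix human Gene ST arrays of cytoplasmic RNA from LNCaP, an androgen-responsive human prostate cancer line grown in T-Medium with 10% serum. Of the arrays, 3 came from clones carrying a short hairpin RNA against MBD2 (MBD2 knockdown), and 3 from clones with a scrambled hairpin (scrambled control). All clones carried the same hairpin vector and had been selected with neomycin, and per the design text each replicate is a separate stable clone, so differences between single clones enter every comparison. MBD2 recognises methylated CpG dinucleotides in DNA and brings repressor complexes to them, and the comparison asks which genes change when it is reduced.

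Genes were taken from array features (probe groups) annotated with exactly 1 gene symbol. By that rule 7 of the 10 enzymes were measured, among 16704 genes in all, each by 1 feature. UGT2B15 and UGT2B11 were found only on features annotated with several symbols, and SRD5A3 was not analysed here. All values are log2 expression, in which a difference of 1 is a doubling, and levels of different features are not set against each other because each has its own probes.

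MBD2 itself stood at 7.68, 7.84 and 7.81 in knockdown clones 1, 2 and 3, against 8.73, 9.24 and 9.20 in control clones 1, 2 and 3. No knockdown clone reached any control. The difference was -1.28 (SE 0.14, adjusted p = 0.111, limma's moderated test over all genes). The array medians lay between 6.32 and 6.35. Knockdown clone 1 had a narrower spread of values over all genes, with an SD of 2.00 against 2.05 to 2.07 on the other arrays. Its lower quartile was 4.81, against 4.68 to 4.72, and its upper quartile 7.79, against 7.82 to 7.87. The SD of gene-by-gene differences between 2 arrays was smallest for knockdown clones 2 and 3 (0.19) and largest for knockdown clones 1 and 3 (0.35). The luminal prostate markers KLK3, KRT8, KRT18, HOXB13 and ACP3 were above the lower quartile of the genes on all 6 arrays. The haematopoietic markers PTPRC and CD3E and the stromal markers DCN and LUM were below it on all 6. The haematopoietic marker LCP1 and the stromal markers VIM, COL1A1, COL1A2 and COL3A1 were above it on all 6. These haematopoietic and stromal markers were named after their values were seen. Of the measured basal prostate markers 2 of 4 were above it on all arrays, of the adrenal and Leydig markers 1 of 6, of the stromal markers 4 of 7 and of the haematopoietic markers 1 of 4, and 0 members of any marker list passed an adjusted p under 0.05. Of 7 hepatocyte markers 4 were above it on all arrays and 2 on none, and as a mean over the list, with the controls set to average 0, knockdown clones 1, 2 and 3 had 0.59, 0.05 and 0.51, against -0.28, 0.26 and 0.02 in control clones 1, 2 and 3, led by ALB (named after its values were seen). Liver also expresses the UGT2B enzymes. The part of this list in any enzyme's level was not tested.

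Because MBD2 recognises CpG dinucleotides, the start regions of the enzymes are shown first by how many they hold. Sequences are RefSeq windows of 300 bases around a start site, most of them upstream of it, on GRCh38.p14, given 5′ to 3′ on the gene's strand, with every CpG in capitals. A window was given for 7 of the 10 enzymes. Those printed are UGT2B15, UGT2B10, a further glucuronosyltransferase of the same cluster that was measured, AKR1C3 (the first of 2 listed start sites), SRD5A1 and STS (the start site of 5 with the most CpGs), and they lie at chr4:68670603-68670902 (minus strand), chr4:68815744-68816043, chr10:5048531-5048830, chr5:6633190-6633489 and chrX:7147462-7147761 (all plus strand).
UGT2B15: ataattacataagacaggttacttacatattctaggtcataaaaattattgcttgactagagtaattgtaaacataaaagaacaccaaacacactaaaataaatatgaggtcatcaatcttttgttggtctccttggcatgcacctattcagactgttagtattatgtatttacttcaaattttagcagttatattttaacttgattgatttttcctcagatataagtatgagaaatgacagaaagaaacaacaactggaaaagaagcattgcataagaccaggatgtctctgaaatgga
UGT2B10: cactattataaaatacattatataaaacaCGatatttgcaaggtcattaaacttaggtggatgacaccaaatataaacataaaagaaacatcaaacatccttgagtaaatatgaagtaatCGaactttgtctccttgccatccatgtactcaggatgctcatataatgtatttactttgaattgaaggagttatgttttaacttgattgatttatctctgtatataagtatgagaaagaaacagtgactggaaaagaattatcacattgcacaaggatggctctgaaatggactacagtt
AKR1C3: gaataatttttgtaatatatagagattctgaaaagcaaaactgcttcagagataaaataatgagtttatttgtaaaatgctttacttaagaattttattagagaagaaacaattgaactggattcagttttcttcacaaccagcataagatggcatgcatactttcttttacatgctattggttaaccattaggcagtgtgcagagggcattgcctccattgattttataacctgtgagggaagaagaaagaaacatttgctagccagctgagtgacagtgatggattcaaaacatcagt
SRD5A1: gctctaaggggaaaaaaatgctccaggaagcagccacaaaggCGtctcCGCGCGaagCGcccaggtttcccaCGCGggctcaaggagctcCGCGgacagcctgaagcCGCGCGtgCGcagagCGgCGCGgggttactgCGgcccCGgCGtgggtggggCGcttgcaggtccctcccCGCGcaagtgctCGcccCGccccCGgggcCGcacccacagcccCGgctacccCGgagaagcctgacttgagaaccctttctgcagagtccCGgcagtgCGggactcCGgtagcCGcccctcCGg
STS: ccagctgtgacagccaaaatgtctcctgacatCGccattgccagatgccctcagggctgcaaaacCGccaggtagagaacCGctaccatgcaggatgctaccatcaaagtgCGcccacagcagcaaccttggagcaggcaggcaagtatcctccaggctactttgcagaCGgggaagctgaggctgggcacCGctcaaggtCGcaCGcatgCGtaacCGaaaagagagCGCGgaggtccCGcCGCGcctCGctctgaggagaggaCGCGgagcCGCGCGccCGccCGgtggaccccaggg

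The windows fall into CpG-poor and CpG-rich ones. Those of UGT2B15 and AKR1C3 held 0 CpGs, as 4.0% of all 35116 windows did, and that of UGT2B10 held 2, with 18.2% of windows holding as few. UGT2B11 also held 2, and both HSD3B1 windows held 1. The SRD5A1 window held 33 and the SRD5A3 window 31, and those of STS ranged from 1 to 23, against a median of 14 over all windows. Over all start sites listed, the enzymes have 13 windows, in which 4 motifs were searched on both strands. A FOXA motif, TGTTTAC or TGTTTGC, was present in 2 of the 13, those of UGT2B15 and the second AKR1C3 start site, and in 7.2% of all windows. A single arm of the androgen response element, AGAACA, was present in 3 of the 13, those of UGT2B15 and of 2 STS start sites, and in 14.8% of all windows. The HNF1 core GTTAAT was present in 1 of the 13 (STS) and in 6.9% of all windows. The TATA-box string TATAAA was present on either strand in 3 of the 13 (UGT2B11, AKR1C3 and STS) and in 11.5%. For AKR1C3 the match is on the strand opposite the gene, printed as TTTATA. The strand of the others was not recorded, so these matches do not show a TATA box. A match is a string of letters in these windows and shows no binding, and methylation was not measured on these arrays.

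No enzyme passed the threshold of an adjusted p under 0.05. The count was 0 of 7 in limma's moderated test, where 0% of all 16704 genes passed, and 0 of 7 had an unadjusted p under 0.05, against 1568 of all genes. An equal-variance test without moderation also called 0 genes after adjustment. In 0 of the 7 enzymes were the 3 knockdown clones apart from the 3 controls, and this was so for 15.4% of all genes. With 7 enzymes, that count cannot be told apart from the share over all genes. The mean was higher in the knockdown clones for 7 of 7 enzymes, against 8138 of 16704 genes, but HSD17B6, at 0.0079, turned to lower values under each of 3 other scalings, and without control clone 3 the count was 5 of 7. The median log2 difference of the 7 was 0.16, and that of all genes was -0.0043.

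**Figure D1:**
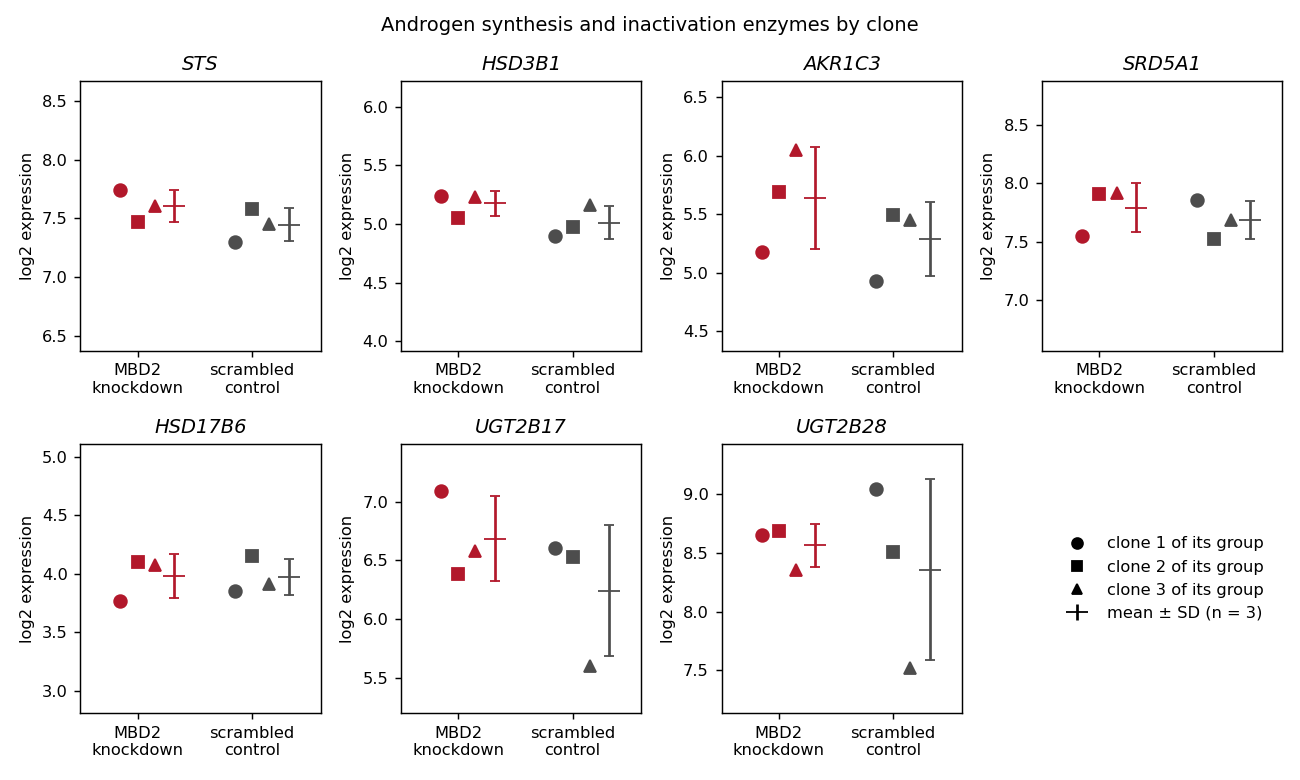
Log2 expression (vertical axes, each spanning the same range) of the 7 measured enzymes in MBD2 knockdown clones (left, red) and scrambled control clones (right, grey); each symbol is 1 clone and the bars are the mean ± SD of 3 clones. The groups overlap in every panel, and control clone 3 is the lowest of all clones for UGT2B17 and UGT2B28.

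STS removes the sulfate from dehydroepiandrosterone sulfate, the main circulating precursor, and HSD3B1 converts dehydroepiandrosterone to androstenedione. STS stood at 7.74, 7.47 and 7.60 in knockdown clones 1, 2 and 3, against 7.30, 7.58 and 7.45 in control clones 1, 2 and 3. Knockdown clone 1 was the highest and control clone 1 the lowest, and the other clones were mixed. The difference was 0.16 (SE 0.11, adjusted p = 0.716), with a 95% interval from 0.936- to 1.33-fold. HSD3B1 had 5.24, 5.05 and 5.23 in the knockdown clones, against 4.89, 4.97 and 5.16 in the controls. Only knockdown clone 2 and control clone 3 crossed over. Its difference of 0.16 (SE 0.10, adjusted p = 0.677) had the smallest p of the 7, with a 95% interval from 0.95- to 1.32-fold. The exact two-sided permutation p was 0.2 for each of these genes, and such a design cannot give less than 0.1.

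AKR1C3 reduces androstenedione to testosterone, and it varied more between clones than most genes did. It stood at 5.18, 5.69 and 6.04 in knockdown clones 1, 2 and 3, against 4.93, 5.49 and 5.45 in control clones 1, 2 and 3. Clone 1 was the lowest of its own group in both, and knockdown clone 1 lay below control clones 2 and 3. The difference was 0.35 (SE 0.24, adjusted p = 0.716, exact permutation p = 0.4), with a 95% interval from 0.866- to 1.87-fold. The SD between clones, 0.44 in the knockdown group and 0.31 in the controls, was at the 96.9th and the 95.5th percentile of all genes. Without knockdown clone 1 the difference was 0.58 (adjusted p = 0.221), which was the smallest adjusted p of any enzyme under any alternative tried. It was 0.14 without knockdown clone 3 (adjusted p = 0.904) and 0.17 without control clone 1 (adjusted p = 0.906).

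The neighbours of AKR1C3 on chromosome 10 did not follow one pattern. AKR1C2, which inactivates dihydrotestosterone by reduction, had 5.70, 6.20 and 6.51 in the knockdown clones, against 6.33, 6.07 and 5.56 in the controls. It shared with AKR1C3 the order of the knockdown clones, but control clone 1 was the highest control for AKR1C2 and the lowest for AKR1C3. AKR1C1, a near-identical gene, had a difference of -0.10 (adjusted p = 0.854). AKR1C4, AKR1C8, AKR1C6P and AKR1E2 were below the lower quartile of genes on all arrays, with differences between -0.0095 and 0.097. The flanking genes PITRM1, KLF6, UCN3 and TUBAL3 had -0.13, -0.32, 0.09 and 0.21 (adjusted p from 0.435 to 0.829). Since the AKR1C genes are similar in sequence, which member a feature measures is uncertain.

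SRD5A1 converts testosterone to dihydrotestosterone, and HSD17B6 oxidises a reduced metabolite back to dihydrotestosterone. SRD5A1 had 7.55, 7.91 and 7.92 in the knockdown clones, against 7.85, 7.53 and 7.69 in the controls. Knockdown clones 2 and 3 were the highest, and knockdown clone 1 was next to the lowest, control clone 2. The difference was 0.10 (SE 0.13, adjusted p = 0.859), with a 95% interval from 0.868- to 1.33-fold. HSD17B6 had 3.77, 4.10 and 4.08 in the knockdown clones, against 3.85, 4.15 and 3.92 in the controls. It was below the lower quartile of genes on all 6 arrays, and the clones of both groups were mixed in order. The difference was 0.0079 (SE 0.12, adjusted p = 0.991), with a 95% interval from 0.823- to 1.23-fold.

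UGT2B17, which glucuronidates testosterone and dihydrotestosterone, had the largest difference among the 7 enzymes, and that difference lay mainly in 1 control clone. It stood at 7.09, 6.39 and 6.58 in knockdown clones 1, 2 and 3, against 6.60, 6.53 and 5.60 in control clones 1, 2 and 3. Control clone 3 was the lowest of all and knockdown clone 1 the highest, while the other 4 clones were close together. The difference was 0.45 (SE 0.29, adjusted p = 0.699, exact permutation p = 0.5), with a 95% interval from 0.85- to 2.18-fold. Without control clone 3 it was 0.12 (adjusted p = 0.951), and without knockdown clone 1 it was 0.24 (adjusted p = 0.752).

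UGT2B28, a glucuronosyltransferase that also acts on androgens, had 8.66, 8.68 and 8.35 in the knockdown clones, against 9.04, 8.51 and 7.52 in the controls. The controls enclosed all knockdown clones. The difference was 0.21 (SE 0.34, adjusted p = 0.897, exact permutation p = 0.8), and it turned to -0.21 without control clone 3. The SD of the controls was 0.56 for UGT2B17 and 0.77 for UGT2B28, at the 99.0th and 99.6th percentile of all genes. In the knockdown clones it was 0.37 for UGT2B17 and 0.18 for UGT2B28, at the 94.5th and 69.2nd percentile.

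**Figure D2:**
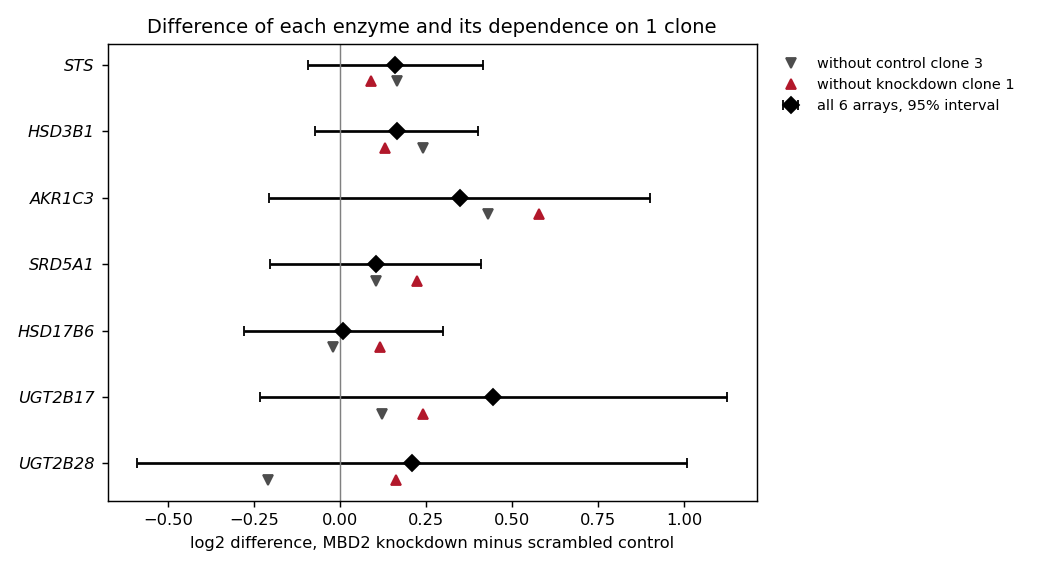
Log2 difference between MBD2 knockdown and scrambled control (horizontal axis) for the 7 enzymes, with the 95% interval of the fit over all 6 arrays (diamonds and bars) and the value without control clone 3 or without knockdown clone 1 (triangles). All 7 intervals include 0, and UGT2B28 moves to the other side of 0 without control clone 3.

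The low level in control clone 3 ran through the UGT2B genes of the cluster on chromosome 4. All 5 UGT2B genes measured by a feature with 1 symbol were at their lowest of the 6 clones in control clone 3. Because the family members are similar in sequence, these features may share signal and are not 5 independent readings. UGT2B10 had 10.19, 9.76 and 9.58 in the knockdown clones, against 9.83, 9.80 and 8.27 in the controls. UGT2B4, which acts on bile acids and steroids, had 5.87, 5.38 and 5.55 in the knockdown clones, against 5.67, 5.39 and 3.98 in the controls. Relative to the mean of the other 2 controls, control clone 3 was lower by a log2 value of -0.97 for UGT2B17, -1.55 for UGT2B10, -1.25 for UGT2B28, -1.55 for UGT2B4 and -0.56 for UGT2B7. These gaps lay at the 0.135th, 0.015th, 0.063rd, 0.021st and 0.656th percentile of the same gap over all genes, which describes that clone and is no test. The differences of UGT2B10 and UGT2B4 between the groups, 0.55 (adjusted p = 0.739) and 0.58 (adjusted p = 0.716), became 0.03 and 0.07 without it.

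Other measured genes in and beside the cluster had smaller gaps. UGT2A3, a glucuronosyltransferase gene between UGT2B10 and UGT2B7, had a gap of -0.07 in control clone 3, and the sulfotransferase genes SULT1B1 and SULT1E1 had 0.18 and -0.25. The nearest measured genes outside, TMPRSS11E, YTHDC1, CSN1S1 and CSN2, had -0.36, -0.07, -0.12 and 0.23. UGT2A3, SULT1B1, SULT1E1, CSN1S1 and CSN2 were below the lower quartile of genes on all arrays, as UGT2B7 was. YTHDC1 and TMPRSS11E were above it on all.

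**Figure D3:**
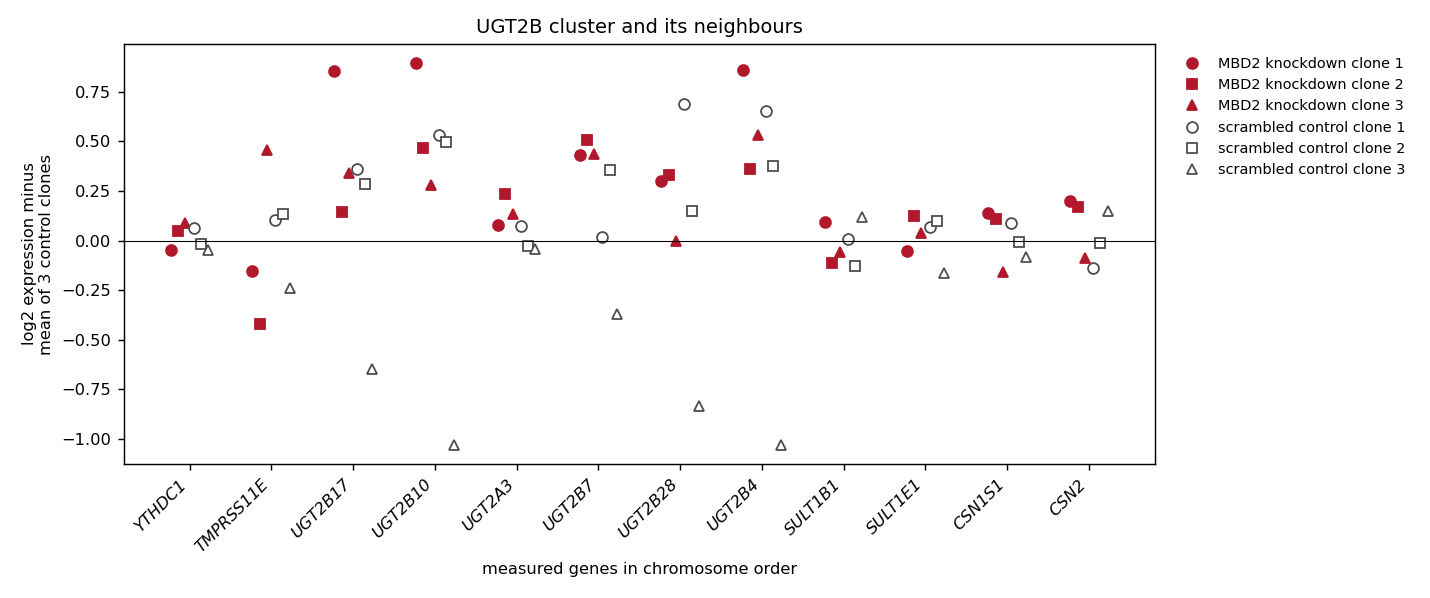
Log2 expression relative to the mean of the 3 control clones (vertical axis) of the measured genes in and beside the UGT2B cluster in chromosome order (horizontal axis, not to scale), with MBD2 knockdown clones as filled red symbols and scrambled control clones as open grey symbols. Control clone 3 (open triangle) is the lowest clone for UGT2B17, UGT2B10, UGT2B7, UGT2B28 and UGT2B4.

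UGT2B15, which glucuronidates dihydrotestosterone and its reduced metabolites, and UGT2B11 have no feature of their own in these data. Features annotated with several UGT2B genes at once gave the same order of clones at the low end. Features 8100737 and 8100746, annotated with UGT2B17 and UGT2B15, held identical values and count once. They stood at 11.29, 10.63 and 10.81 in the knockdown clones, against 10.96, 10.80 and 9.77 in the controls. The difference of 0.40 (SE 0.32, adjusted p = 0.744 over all features) became 0.03 without control clone 3. Feature 8100758, annotated with 5 UGT2B genes including UGT2B11 and UGT2B15, had 12.26, 11.73 and 11.73, against 12.03, 11.82 and 10.90. Feature 8100768, annotated with 7 genes including UGT2B28 and UGT2B11, had 10.90, 10.68 and 10.49, against 10.95, 10.62 and 9.36. Which gene gives the signal on these features cannot be told. The same holds in part for the features of UGT2B17, UGT2B28, UGT2B10, UGT2B4 and UGT2B7, since the family members are similar in sequence.

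Other genes of androgen metabolism were described by lists, of which none had a member past the threshold in either direction, as for 0% of all genes. In glucuronidation, 6 of 8 measured genes had higher means and the median difference was 0.25, which was 0.10 without control clone 3. UGT2B7, a glucuronosyltransferase of steroids and drugs, had 3.47, 3.55 and 3.48 in the knockdown clones, against 3.06, 3.40 and 2.67 in the controls, a difference of 0.46 (adjusted p = 0.468). UGT2A3 had 0.15 (adjusted p = 0.634), and both genes were below the lower quartile of genes on all arrays. In sulfation, 5 of 6 had higher means and the median was 0.15. PAPSS1, which makes the sulfate donor, had 9.34, 8.66 and 8.64, against 7.94, 8.54 and 8.07 in the controls. Every knockdown clone lay above every control for PAPSS1, with a difference of 0.70 (SE 0.23, adjusted p = 0.404). SULT2B1, which sulfates cholesterol and related steroids, had 0.39 (adjusted p = 0.607).

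In the remaining lists of enzymes and carriers the medians were nearer to 0. For reduction and oxidation of steroids at the 17 and 3 positions, 8 of 16 were higher and the median was 0.0087. RDH16 and DHRS9, both of which can oxidise reduced androgens, had 0.33 (adjusted p = 0.435) and 0.19 (adjusted p = 0.580). In upstream steroidogenesis, 3 of 9 were higher and the median was -0.07. FDX1, which passes electrons to the cholesterol side-chain cleavage enzyme, had 7.09, 7.05 and 6.75 in the knockdown clones, against 7.23, 7.22 and 7.45 in the controls. The groups did not overlap for FDX1, with a difference of -0.34 (SE 0.12, adjusted p = 0.445). STARD3, a cholesterol carrier, had 0.11 (adjusted p = 0.762). For hydroxylation and aromatisation, 2 of 9 were higher with a median of -0.06, and HSD11B2, which inactivates cortisol, had -0.22 and CYP3A4, a hydroxylase of testosterone, -0.11 (adjusted p = 0.827 and 0.842). For transport, 4 of 7 were higher with a median of 0.05. The uptake carrier SLCO1B3 had -0.20 and SHBG, the androgen carrier of plasma, 0.09 (adjusted p = 0.626 and 0.857). Of the genes named in these lists, DHRS9, CYP3A4 and SLCO1B3 were below the lower quartile of genes on all arrays. So were 5 of the 7 measured genes of transport, 5 of 16 of reduction and oxidation, 3 of 9 of hydroxylation and aromatisation and 2 of 9 upstream. In sulfation it was 3 of 6 and in glucuronidation 2 of 8, against 3636 of all 16704 genes.

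**Figure D4:**
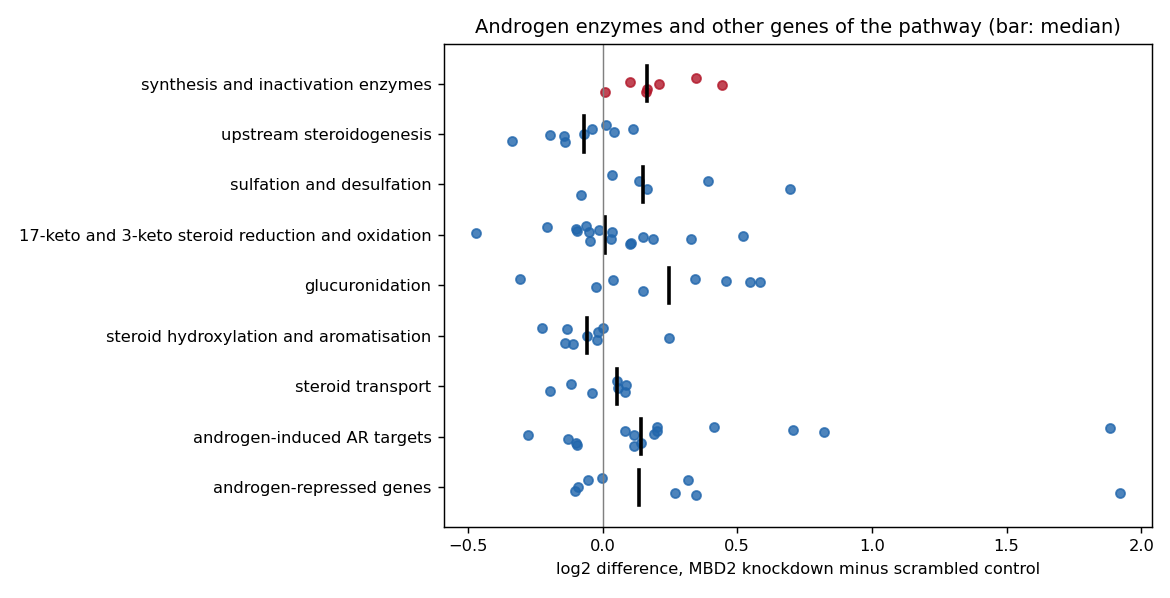
Log2 difference between MBD2 knockdown and scrambled control (horizontal axis) of each measured gene in the enzyme set (red) and in 8 lists of related genes (blue), with a bar at each median; the vertical scatter within a row has no meaning. No point is past the threshold, and medians lie between -0.07 and 0.25.

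Readouts of androgen signalling were set beside the enzymes, clone by clone. Averaged over 15 measured androgen-induced genes, with the controls set to average 0, knockdown clones 1, 2 and 3 had -0.23, 0.46 and 0.62, against -0.26, 0.15 and 0.11 in control clones 1, 2 and 3. Knockdown clone 1 was the lowest knockdown clone for this mean and for AKR1C3, SRD5A1 and HSD17B6. It was the highest knockdown clone for UGT2B17, STS and HSD3B1, and for UGT2B28 it lay between knockdown clones 2 and 3. Among the controls the lowest for this mean was clone 1, whereas the lowest for UGT2B17 was clone 3. The list had 11 of 15 genes higher and a median of 0.14, which was -0.0048 without control clone 1. NDRG1 had 0.82 (adjusted p = 0.352) and ZBTB16 -0.28 (adjusted p = 0.559), each with groups that did not overlap. UGDH, which makes the glucuronic acid donor that the UGT2B enzymes use and was named after its values were seen, had 9.75, 11.24 and 11.13 in the knockdown clones, against 10.72, 10.44 and 9.93 in the controls. Knockdown clone 1 was its lowest clone and knockdown clones 2 and 3 were its highest. Of 8 measured genes that androgens repress 4 were higher, with a median of 0.13, which was 0.0035 without control clone 1. As a mean over these genes, knockdown clones 1, 2 and 3 had 0.37, 0.21 and 0.40. Control clones 1, 2 and 3 had -0.24, 0.12 and 0.12. CAMK2N1 weighed most in the means of the knockdown clones. It had 10.30, 9.09 and 10.52 in knockdown clones 1, 2 and 3, against 7.32, 8.41 and 8.42 in the controls. Its difference was 1.92 (adjusted p = 0.272), and that of OPRK1 was 0.27 (adjusted p = 0.422).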

How the data were processed

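Cytoplasmic RNA of 3 MBD2 knockdown and 3 scrambled control clones of LNCaP was measured with 1 array each. The deposited values are log2 expression per feature; per the submitters' processing notes they were made by the authors with RMA, using oligo and limma in R, with no version, filter or array date stated. The log2 scale was inferred from the range of values and from RMA. Values were used without further normalization. Of 19712 features, 17334 have 1 symbol in the platform annotation, 1521 several and 857 none listed here; for 470 genes with over 1 feature the brightest was kept.

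All 16704 genes were fitted in limma 3.58.1 (R 4.3.3; lmFit, then eBayes), without covariates, as knockdown minus control, with Benjamini-Hochberg adjustment across all of them. The fit was tested on simulated data with independent noise and no clone or array effects. Such a run does not cover differences between clones. The number of arrays limits precision. The enzymes, the 14 lists and the alternatives were chosen with earlier results of these data known. Named are all enzymes, MBD2, neighbours in both gene clusters, luminal markers and, where no list member passed, the 2 with the smallest p; any other gene was chosen after its values were seen. The deviations of same-numbered clones had correlations over genes of -0.03, -0.19 and 0.17. Those of differently numbered clones ranged from -0.17 to 0.22. With 3 clones per group these values cannot decide whether the numbers pair the clones, and the main fit did not pair them. Gene order and promoter windows are from RefSeq GRCh38.p14.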

Additional observations from a re-analysis of the deposited data

How the results depend on the processing

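Over 111 values of the 7 enzymes under alternatives, 102 kept their direction, 9 reversed and 0 passed the threshold; the number of enzymes passing was 0 in each. HSD17B6 reversed after median centring (-0.0021), cyclic loess (-0.026), a second quantile normalization (-0.028) and averaging knockdown clones 2 and 3 (-0.045), and ranged from -0.053 to 0.11 when arrays were left out in turn; leaving out the dimmest 30% of genes removed it. UGT2B28 ranged from -0.21 to 0.55 over the left-out arrays, reversing without control clone 3. UGT2B17 ranged from 0.12 to 0.63, AKR1C3 from 0.14 to 0.58, SRD5A1 from 0.022 to 0.22, HSD3B1 from 0.11 to 0.24 and STS from 0.086 to 0.23. The number of enzymes whose groups did not overlap ranged from 0 to 2 of 7 with an array left out, against 22.9% to 35.1% of all genes (2 of 7 without knockdown clone 1, where it was 35.1%, and 2 of 7 without knockdown clone 2, where it was 23.8%), fewer samples making overlap rarer. MBD2 ranged from -1.44 (past the threshold without control clone 1, adjusted p = 0.0179) to -1.19 and passed without knockdown clone 1 (adjusted p = 0.0498) and with array weights (-1.27, adjusted p = 0.0138). With all genes, 1 passed after quantile normalization and 1 after cyclic loess (ZNF487 in both), 325 with array weights, which weighted knockdown clone 1 by 0.252 and clone 2 by 3.43, and 2 at an adjusted p under 0.1 (ATP11A and ZNF487); 0 to 70 passed with an array left out, 7 without control clone 1 and 70 without knockdown clone 1. The cause of these changes was not tested. With the replicate number as a replicate block, 0 genes and 0 enzymes passed (UGT2B17 0.45, adjusted p = 0.599; AKR1C3 adjusted p = 0.453). Another scaling moved the median of all genes by at most -0.01.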
